A study of Homo sapiens with 7 samples.

Results

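The ATP-binding cassette (ABC) transporter family was followed in ACHN cells, a human renal cell carcinoma (RCC) line, as every non-control probe of the array whose gene name begins with ABC, a subfamily letter from A to G and a number. This rule found 71 of the 42405 probes and 49 of the 34809 gene names, with 14 names in subfamily ABCA, 9 in ABCB, 13 in ABCC, 4 in ABCD, 1 in ABCE, 3 in ABCF and 5 in ABCG. Among them are 11 pumps known to export drugs or drug conjugates, and 4 further names (ABCA11P, ABCA17P, ABCC6P1 and ABCC13) are listed by RefSeq as transcribed pseudogenes. The ACHN cells had been infected with a pBabe-hygro retrovirus that carried either no insert (EV, 4 samples, EV 1 to EV 4) or human HOTAIR cDNA (HOTAIR, 3 samples, HOTAIR 1 to HOTAIR 3), and cells of both groups were selected with hygromycin. Total RNA of each sample was labelled with Cy3 and read on its own Agilent SurePrint G3 Human GE array, to ask which transcripts differ when the long noncoding RNA HOTAIR is overexpressed. Whether the samples of a group were separate infections or cultures is not stated, so the p-values measure the spread between these samples, which may be technical. On the slide the EV arrays had a row to themselves, as did the HOTAIR arrays, and row and group therefore cannot be told apart.

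ABC transporters bind and hydrolyse ATP on paired nucleotide-binding domains and use the energy to move lipids, bile salts, peptides, metals, conjugates or drugs across membranes. The ABCA and ABCD subfamilies mainly handle lipids and fatty acids, ABCB and ABCC hold the classical multidrug pumps beside mitochondrial carriers and ion channel regulators, and ABCE and ABCF keep the ATPase domains without a transmembrane part and serve the ribosome. In the kidney, proximal tubule cells use ABCB1 (P-glycoprotein), ABCC2, ABCC4 and ABCG2 to secrete drugs and organic anions, and RCC is known for its resistance to chemotherapy.

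The probes are 60 bases long and each reads 1 short stretch of 1 transcript. The 5 shown are those on which the results on the drug pumps and on copied sequence turn. They lie in coding sequence, are printed 5′ to 3′ in the transcript's sense, and come from the array files.
ABCB1 A_23_P82523: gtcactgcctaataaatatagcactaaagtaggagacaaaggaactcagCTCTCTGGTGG
ABCC2 A_23_P44569: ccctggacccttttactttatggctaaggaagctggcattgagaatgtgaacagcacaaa
ABCC4 A_24_P16913: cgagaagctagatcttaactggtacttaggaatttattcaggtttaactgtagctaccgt
ABCC10 A_23_P219013: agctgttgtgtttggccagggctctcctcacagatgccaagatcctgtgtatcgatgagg
ABCF2 A_23_P215175: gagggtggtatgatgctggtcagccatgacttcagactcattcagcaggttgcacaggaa
The capitals mark codons for Leu-Ser-Gly-Gly, the start of the signature motif by which ABC proteins are recognised, which begin at base 50 of the ABCB1 probe. The letters searched were CTN, TTA or TTG, then TCN, AGC or AGT, then GGN and GG. The ABCB1 probe was the 1 of the 71 ABC probes that held them (1.41%), and 49 of all 42405 probes did (0.116%). On the opposite strand 0 of the ABC probes and 63 of all probes held them (0.149%). Such a match describes the letters of a probe and nothing more.

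The array annotation (hg19) places the ABCC2 probe on the plus strand at chr10:101611322-101611381 and gives no position for the ABCB1, ABCC4 and ABCC10 probes shown, nor for a probe of ABCC9. The ABCF2 probe is placed at chr3:88367988-88368046, whereas RefSeq lists the gene on chromosome 7. A probe of ABCB10, placed on chromosome 15 and not 1, and a probe of ABCE1, placed on chromosome 1 and not 4, had a mismatch of the same kind. Signal of the gene and of copied sequence elsewhere cannot be told apart with these probes, which leaves the level of ABCF2 uncertain, since no other probe of this gene was tested. ABCC6 has the same uncertainty, because 2 of its 4 probes are placed near 14916384 on chromosome 16, away from its other probes at 16243855 and 16315075, and the pseudogene ABCC6P1 lies on the same chromosome at 18609500.

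All levels below are log2 of the processed signal relative to each array's 75th percentile, which is set to 0, and a difference is the HOTAIR mean minus the EV mean on that scale. The signal at the 75th percentile ranged from 522.5 to 649.1 intensity units over the 7 arrays, and 48.7% to 52.1% of the probes of an array were well above background by the scanner software's own call. The HOTAIR probe was at -6.29, -6.97, -6.42 and -7.07 on the EV arrays, not well above background on any of them, and at -3.12, -3.24 and -2.58 on the HOTAIR arrays (difference 3.71, adjusted p = 0.00162 by limma). All 7 genes examined as markers of the line (PAX8, PAX2, KRT8, KRT18, CDH16, LRP2 and VIM) were well above background on all arrays. Probes of KRT18 are placed on chromosomes Y and 4 and those of KRT8 on 8 and 1, so copied sequence may add to their signal. CDH16 alone of the 7 (14.3%, against 7.7% of all tested probes) had groups without overlap, at 0.691 to 1.211 on the EV and 0.071 to 0.575 on the HOTAIR arrays. Its difference was -0.62 (from -1.04 to -0.20, unadjusted p = 0.00996, adjusted p = 0.531 by limma). None of 6 markers of blood, endothelial, liver, muscle or neural cells passed the filter for testing. EV 2 and HOTAIR 3 stood apart. EV 2 lay farthest from its group mean for 50.9% of the 20419 tested probes and HOTAIR 3 for 53%, and the deviations of these arrays from the others of their groups correlated at 0.619 over those probes. What set them apart was not tested, and differences that shift with them are also given without them.

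Over the family as a whole, ACHN cells held signal for most ABC genes and no ABC probe differed between the groups at an adjusted p of 0.05. Of the 71 probes, 39 (54.9%) were well above background on all 7 arrays, where the background over all 42405 probes was 45.2%. These 39 probes belonged to 29 genes. Another 23 probes were on no array and 9 on some arrays. The filter kept a probe if no array of the EV group, or none of the HOTAIR group, had it at background, and passed 43 probes of 30 genes.

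**Figure D1:**
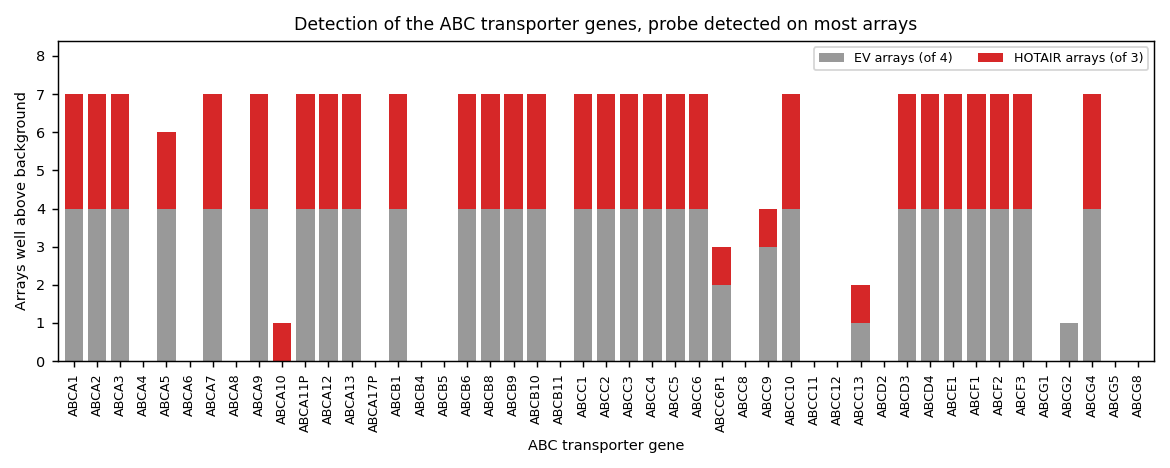
For each of 47 ABC genes along the horizontal axis, the bar height is the number of arrays (of 7) on which the gene's most often detected probe was well above background, with grey for EV arrays and red for HOTAIR arrays. Most genes stood at 7 or at 0, and ABCA5, ABCA10, ABCC6P1, ABCC9, ABCC13 and ABCG2 lay between.

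The comparison of HOTAIR with EV asked whether any ABC transcript shifts with HOTAIR. By limma, 0 of the 43 tested ABC probes passed an adjusted p of 0.05, where 34 of 20419 probes did (0.167%), and the smallest adjusted p of an ABC probe was 0.35. At an unadjusted p of 0.05 the count was 2 of 43 (4.65%), against 5.85% of all tested probes. An exact two-sided Mann-Whitney U test of 4 against 3 arrays cannot go below p = 0.0571, so it could pass no probe. The groups did not overlap for 6 of 43 ABC probes (14%), 3 higher and 3 lower on the HOTAIR arrays, against 7.7% of all tested probes. The gap between these shares was not tested, and it was gone with quantile normalization (6.98% against 7.96%) and with the deposited table (4.65% against 5.01%). Under the other alternatives the share stayed higher among the ABC probes. It was 14% against 7.84% with normexp background correction and 8.45% against 5.74% with no filter. The difference was above 0 for 22 of 43 ABC probes (51.2%, against 52.8% of all), and the median difference was 0.006 over the ABC probes and 0.013 over all. Among only the 39 ABC probes well above background on all arrays, 19 had a difference above 0.

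A probe that misses the threshold may still differ by a modest amount. The 95% interval of the difference lay within 2-fold in either direction for 41 of the 43 ABC probes (95.3%), and for 87% of all tested probes. The exceptions were ABCA7, from -0.56 to 1.27, and the 5′ probe of ABCA1, from -0.96 to 2.00. The median standard error was 0.145 over the ABC probes and 0.163 over all. A lower signal from fewer cells that carry a transcript and one from less transcript per cell cannot be told apart in these bulk samples.

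**Figure D2:**
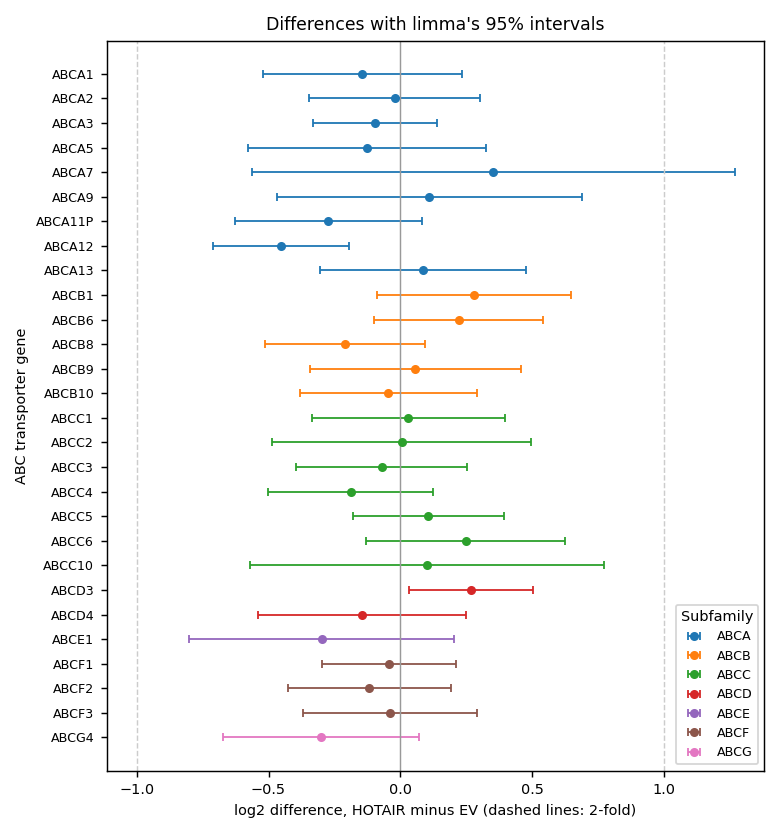
HOTAIR minus EV on the log2 scale (horizontal axis) for the brightest tested probe of each of 28 tested ABC genes (vertical axis), with limma's 95% interval as the bar and the subfamily as the colour. The intervals of ABCA12 and ABCD3 leave out 0, neither passed the adjusted p, and the interval of ABCA7 alone crosses a dashed line at 2-fold.

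Of the 11 drug-efflux pumps, 8 were well above background on all 7 arrays with at least 1 probe, namely ABCB1, ABCC1 to ABCC6 and ABCC10, while ABCB5 and ABCC11 were on no array and ABCG2 on 1. None of the 16 tested probes of these 8 genes passed at either the adjusted or the unadjusted p of 0.05. Their differences ran from -0.19 to 0.28 with a median of 0.10. Above 0 were 12 of the 16 probes (75%, against 52.8% of all), or 6 of the 8 genes with 1 probe each, and with 1 array left out at a time 9 to 13 of the 16 probes were. With normexp background correction 10 of the 16 were, and also 10 with quantile normalization. A probe of ABCB1 and a probe of ABCC10 among the 12 passed the filter only through the HOTAIR group. They were well above background on 3 and on 2 EV arrays. With only probes detected on all arrays 10 of 14 were above 0. Several of these probes read the same transcript. The groups did not overlap for 1 of the 16, a probe of ABCC6 (6.25%, against 7.7% of all).

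ABCB1, or P-glycoprotein, the best known exporter of bulky drugs, was at -3.37, -3.99, -3.61 and -3.61 on the EV arrays with the probe shown above, which is printed 10 times on each array. It was at -3.24, -3.44 and -3.42 on the HOTAIR arrays. EV 1 was above HOTAIR 2 and HOTAIR 3, so the groups overlapped, and EV 2 was the lowest of the 7. The difference was 0.28 (95% interval from -0.09 to 0.65, adjusted p = 0.939 by limma), 0.16 without EV 2 and 0.095 with normexp background correction. The other ABCB1 probe, near the 5′ end, was well above background on 3 EV and 3 HOTAIR arrays and differed by 0.07 (from -0.40 to 0.55).

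ABCC1 (MRP1), which exports glutathione and glucuronide conjugates, was at -0.61, -0.14, -0.53 and -0.32 on the EV arrays. It was at -0.39, -0.57 and -0.15 on the HOTAIR arrays. The ranges of the groups nearly coincided, with a difference of 0.03 (from -0.34 to 0.40, adjusted p = 0.994 by limma). EV 2 and HOTAIR 3 were the highest arrays of their groups, and the difference was 0.12 without EV 2 and -0.08 without HOTAIR 3.

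ABCC2 (MRP2), the apical exporter of organic anions in proximal tubule and liver, was at -4.59, -4.001, -4.35 and -4.59 on the EV arrays. It was at -4.62, -4.53 and -3.98 on the HOTAIR arrays. EV 2 and HOTAIR 3 again stood above the rest of their groups, and the groups covered nearly the same range. The difference was 0.01 (from -0.48 to 0.50, adjusted p = 0.998 by limma), 0.13 without EV 2, -0.19 without HOTAIR 3 and -0.06 without both.

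ABCC3 (MRP3), a basolateral exporter of bile salts and glucuronides, was at 1.98, 2.41, 1.99 and 2.03 on the EV arrays. It was at 1.98, 1.97 and 2.15 on the HOTAIR arrays. Apart from EV 2 and HOTAIR 3 the arrays lay close together, and the difference of -0.07 (from -0.39 to 0.25, adjusted p = 0.993 by limma) was 0.03 without EV 2 and -0.13 without HOTAIR 3. A second probe, for another listed transcript, had a difference of 0.19 (from -0.06 to 0.44), so the probes of this gene differed in sign.

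ABCC4 (MRP4), which exports cyclic nucleotides, urate and nucleotide analogues, was at -1.94, -1.66, -2.04 and -1.83 on the EV arrays. It was at -2.04, -2.23 and -1.91 on the HOTAIR arrays. HOTAIR 2 was the lowest of the 7, but the other HOTAIR arrays lay within the EV range. The difference was -0.19 (from -0.50 to 0.13, adjusted p = 0.973 by limma), the lowest among the pumps, and it was -0.10 without HOTAIR 2 and -0.12 without EV 2.

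ABCC5 (MRP5), another exporter of cyclic nucleotides, was at 1.53, 1.60, 1.82 and 1.60 on the EV arrays. It was at 1.67, 1.91 and 1.65 on the HOTAIR arrays. EV 3 was above HOTAIR 1 and HOTAIR 3, so the groups overlapped (difference 0.11, from -0.18 to 0.39, adjusted p = 0.993 by limma). The other probes of ABCC5 had differences of -0.11 and 0.19, each with an interval that held 0.

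ABCC6 (MRP6), whose loss causes calcification of elastic tissue, was at -1.69, -1.81, -1.38 and -1.26 on the EV arrays with its brightest probe. It was at -1.38, -1.36 and -1.13 on the HOTAIR arrays. HOTAIR 3 was the highest of the 7 and EV 4 was above the other HOTAIR arrays (difference 0.25, from -0.13 to 0.62, adjusted p = 0.958 by limma). It was 0.08 without EV 2 and HOTAIR 3. A probe at the 3′ end of the gene, chr16:16243855-16243914, printed 10 times on each array, separated the groups, with EV arrays from -4.28 to -4.25 and HOTAIR arrays from -4.16 to -3.99. The difference of that probe was 0.21 (from -0.01 to 0.44, adjusted p = 0.889 by limma). The remaining probes of ABCC6 had differences of 0.17 and -0.01, and copied sequence on the chromosome limits what any of the ABCC6 probes says of this gene. The brightest and the remaining probes are listed for transcript variant 2, and the 3′ probe for transcript variant 1.

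ABCC10 (MRP7), a pump for taxanes and other natural products, was at -2.68, -3.68, -2.90 and -3.14 on the EV arrays. It was at -2.70, -2.77 and -3.52 on the HOTAIR arrays. EV 2 and HOTAIR 3 were about as low as each other and far below the rest, by -0.78 and -0.79 against the means of the other arrays of their groups. The difference was 0.10 (from -0.57 to 0.77, adjusted p = 0.993 by limma), -0.09 without EV 2, 0.36 without HOTAIR 3 and 0.17 without both.

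ABCG2 (BCRP), a pump of the proximal tubule and of stem-like cells, was at -5.54, -5.44, -5.65 and -5.55 on the EV arrays and well above background on 1 of them. It was at -5.31, -5.45 and -5.44 on the HOTAIR arrays and well above background on none. The ranges overlapped, and a probe this dim was not tested.

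**Figure D3:**
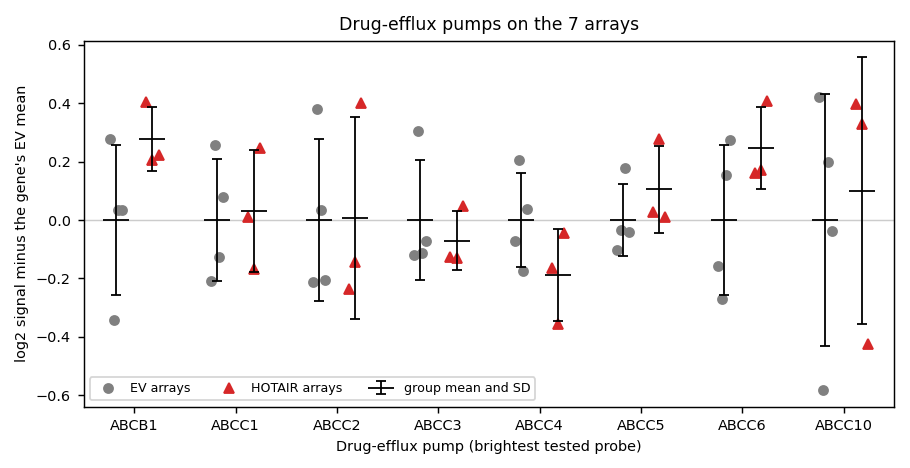
Log2 signal of the 8 tested drug-efflux pumps (horizontal axis) on each array, drawn relative to the mean of the 4 EV arrays of the same gene (vertical axis), with EV as circles, HOTAIR as triangles and the group mean with its SD as a black bar. EV and HOTAIR arrays overlap for all 8 genes, and the widest spread is that of ABCC10.

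Of the 14 names in subfamily ABCA, the full-length lipid transporters and their relatives, 8 were well above background on all arrays and ABCA5, ABCA10 on some. ABCA4, the retinal transporter, ABCA6, ABCA8 and the pseudogene ABCA17P were on none. Of 10 tested probes, 4 had a difference above 0, among them the 5′ probe of ABCA1, which passed the filter only through the HOTAIR group.

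ABCA12, which loads lipids into the lamellar granules of skin, had the smallest p of the family. It was at -0.01, -0.26, -0.07 and 0.03 on the EV arrays and at -0.56, -0.55 and -0.48 on the HOTAIR arrays. All HOTAIR arrays lay below all EV arrays, of which EV 2 was the lowest. The difference was -0.45 (standard error 0.111, from -0.71 to -0.20), a fold of 0.731 (from 0.611 to 0.874). By limma the unadjusted p was 0.00391 and the adjusted p 0.35, so ABCA12 did not pass. Its rank by the rank product, counted from the lowest ratio, was 284 of 20419. Without EV 2 and HOTAIR 3 the difference was -0.54 (adjusted p = 0.235), and with array weights, which give noisier arrays less say, it was -0.49 with an adjusted p of 0.0189. The probe lies at chr2:215796277-215796336 on the minus strand.

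ABCA11P, a transcribed pseudogene, was at -2.98, -2.48, -2.97 and -2.95 on the EV arrays. It was at -3.17, -3.18 and -3.004 on the HOTAIR arrays. The groups did not overlap, but HOTAIR 3 lay just below EV 1, and EV 2 was far above all. The difference was -0.27 (from -0.63 to 0.08, adjusted p = 0.939 by limma) and -0.15 without EV 2.

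ABCA9, a macrophage transporter of uncertain substrate, was at 2.11, 2.94, 2.49 and 3.01 on the EV arrays. It was at 2.46, 2.73 and 3.04 on the HOTAIR arrays. The spread within each group was as wide as any difference between them (0.11, from -0.47 to 0.69, adjusted p = 0.993 by limma). The ABCA9 probe, at chr17:66971063-66971122, lies between probes of its relatives on the same strand of chromosome 17, with ABCA8 at 66865850 on one side and ABCA6 at 67074849, ABCA10 at 67144734 and ABCA5 at 67243530 on the other. Of these neighbours ABCA8 and ABCA6 were on no array, ABCA10 was well above background on 1 HOTAIR array and 0 EV arrays, and ABCA5 on 4 EV and 2 HOTAIR arrays.

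ABCA1, the exporter of cholesterol to apolipoprotein A-I, was at -0.72, -0.36, -0.77 and -0.82 on the EV arrays with its 3′ probe. It was at -0.96, -0.92 and -0.55 on the HOTAIR arrays. EV 2 and HOTAIR 3 were the highest of their groups, and the difference was -0.14 (from -0.52 to 0.23), -0.04 without EV 2 and -0.27 without HOTAIR 3. Its 5′ probe had a difference of 0.52, of the opposite sign, which rested on a single low array. That array was EV 4 at -6.75, beside -4.45 to -3.92 on the other EV arrays. The 5′ probe was well above background on 3 EV and 3 HOTAIR arrays, and passed the filter only through the HOTAIR group.

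ABCA7, a phospholipid transporter, had 1 array far from the rest. It was at -3.84, -3.82, -3.74 and -3.61 on the EV arrays and at -3.90, -4.01 and -2.29 on the HOTAIR arrays. HOTAIR 3 was 1.67 above the mean of the other HOTAIR arrays, which lay below every EV array, and the difference was 0.35 (from -0.56 to 1.27), or -0.20 (adjusted p = 0.819 by limma) without HOTAIR 3. The differences of ABCA2, ABCA3, ABCA5 and ABCA13 ran from -0.13 to 0.09, and each interval held 0.

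Of the other ABCB genes, the mitochondrial and intracellular half-transporters ABCB6, ABCB8, ABCB9 and ABCB10 were well above background on all 7 arrays. ABCB4 and ABCB11, the phospholipid and bile salt pumps of the liver, were on none. The probe of ABCB4 lies at 87031383 on chromosome 7, on the same strand as the mapped ABCB1 probe at 87229435. No ABCB probe passed at an unadjusted p of 0.05.

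ABCB6, a porphyrin transporter, was at 1.77, 1.68, 1.92 and 1.98 on the EV arrays. It was at 2.15, 2.21 and 1.82 on the HOTAIR arrays. HOTAIR 3 lay within the EV range and the other HOTAIR arrays above it. The difference was 0.22 (from -0.10 to 0.54, adjusted p = 0.949 by limma) and 0.34 (adjusted p = 0.794) without HOTAIR 3.

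ABCB8, part of the mitochondrial potassium channel and iron export, was at -0.46, -0.70, -0.73 and -0.67 on the EV arrays with its brighter probe. It was at -0.73, -0.75 and -1.06 on the HOTAIR arrays. The groups touched without overlap, EV 3 being just above HOTAIR 1, and the difference was -0.21 (from -0.51 to 0.09, adjusted p = 0.949 by limma), or -0.10 without HOTAIR 3. The other ABCB8 probe had a difference of 0.17 (from -0.26 to 0.59). ABCB9, a lysosomal peptide transporter, and ABCB10, a mitochondrial transporter of red cell precursors, had differences of 0.06 and -0.05.

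The ABCC genes that are not drug pumps were dim. ABCC8, the sulphonylurea receptor of beta cells, and ABCC12 were on no array, and ABCC12 lies beside ABCC11 on chromosome 16, both at background. ABCC9, the sulphonylurea receptor of muscle and vessels, was well above background on 3 EV arrays and 1 HOTAIR array. It was at -4.76, -4.95, -4.73 and -5.31 on the EV arrays and at -5.70, -5.92 and -5.26 on the HOTAIR arrays. EV 4 and HOTAIR 3 overlapped, and the probe did not enter the comparison. With no filter its difference was -0.69 (unadjusted p = 0.014, adjusted p = 0.817 by limma). The other ABCC9 probe was on no array, and its HOTAIR mean was 0.50 above its EV mean, of the opposite sign. The pseudogenes ABCC6P1 and ABCC13 were well above background on 2 EV and 1 HOTAIR arrays and on 1 EV and 1 HOTAIR array.

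In subfamily ABCD, half-transporters of peroxisomal and lysosomal membranes, ABCD3 and ABCD4 were well above background on all 7 arrays and ABCD2 on none. ABCD3, which brings branched-chain and bile acid precursors into the peroxisome, was at -2.72, -2.65, -2.73 and -2.87 on the EV arrays with its brighter probe. It was at -2.50, -2.46 and -2.47 on the HOTAIR arrays. All HOTAIR arrays lay above all EV arrays, with a difference of 0.27 (from 0.03 to 0.50), an unadjusted p of 0.0303 and an adjusted p of 0.764 by limma.

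A second ABCD3 probe, upstream in the same transcript, was at -3.81, -3.93, -3.91 and -3.93 on the EV arrays. It was at -3.79, -3.54 and -3.65 on the HOTAIR arrays. Its groups also stood apart, HOTAIR 1 by a narrow margin, and its difference was 0.24 (from -0.01 to 0.49, adjusted p = 0.874 by limma). The ABCD3 probes lie at chr1:94944201-94944260 and chr1:94941224-94941283 and read 1 transcript, so they are not independent measurements of the cells. Both are listed for transcript variant 2 of ABCD3, and the array had no other ABCD3 probe. Whether they also read other transcripts of the gene was not tested.

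ABCD4, which releases vitamin B12 from lysosomes, was at 0.35, -0.13, 0.36 and 0.30 on the EV arrays. It was at 0.01, 0.33 and -0.12 on the HOTAIR arrays. EV 2 and HOTAIR 3 were at the same low level while the remaining arrays lay from 0.01 to 0.36, and the difference was -0.15 (from -0.54 to 0.25, adjusted p = 0.993 by limma), -0.26 without EV 2 and -0.05 without HOTAIR 3. A further ABCD4 probe, on the opposite strand of chromosome 14, was on no array.

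The soluble members ABCE1, ABCF1, ABCF2 and ABCF3 were well above background on all 7 arrays with each of their 5 probes. All 5 differences were below 0, where 52.8% of all tested probes were above 0, and none of the 5 passed the test. Of these probes 2 are listed for the same ABCE1 transcript. With the deposited table, without EV 2, without EV 2 and HOTAIR 3, and with array weights, 3 of the 5 were below 0. Without HOTAIR 2 it was 4 of the 5. ABCE1, which recycles ribosomes after termination, was at 2.11, 2.58, 1.94 and 2.08 on the EV arrays. It was at 1.74, 1.60 and 2.30 on the HOTAIR arrays. HOTAIR 1 and HOTAIR 2 lay below every EV array, while HOTAIR 3 lay above all but EV 2.

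The difference of ABCE1 was -0.30 (from -0.80 to 0.20, limma's adjusted p = 0.976). The ABCE1 probe placed on chromosome 1 gave -0.29 (from -0.62 to 0.04). Leaving out 1 array moved the first of these widely, to -0.165 without EV 2, -0.161 without HOTAIR 2 and -0.507 without HOTAIR 3. Without both EV 2 and HOTAIR 3 the values were -0.37 and -0.27, with adjusted p-values of 0.451 and 0.524. ABCF2, a soluble ATPase of this group, was at 2.46, 2.21, 2.25 and 2.50 on the EV arrays. It was at 2.40, 2.25 and 2.06 on the HOTAIR arrays, and HOTAIR 3 alone left the EV range (difference -0.12, from -0.43 to 0.19, or -0.03 without HOTAIR 3). ABCF1, a factor of translation initiation, and ABCF3 had differences of -0.04 each, and without EV 2 they were 0.02 and 0.06.

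Of the 5 ABCG genes, half-transporters of sterols and drugs, ABCG4 alone was tested. The sterol pumps ABCG1, ABCG5 and ABCG8 were on no array. ABCG4, a sterol transporter known from the brain, was at -4.56, -4.53, -4.77 and -4.46 on the EV arrays. It was at -4.77, -4.66 and -5.21 on the HOTAIR arrays. HOTAIR 3 was the lowest, the others overlapped EV 3, and the difference was -0.30 (from -0.67 to 0.07, adjusted p = 0.930 by limma). It was -0.13 without HOTAIR 3 and -0.05 with array weights.

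Several tested probes were present for 10 genes. For 5 of them the probes gave differences of 1 sign (ABCB1, ABCB10, ABCC10, ABCD3 and ABCE1) and for 5 of both signs (ABCA1, ABCB8, ABCC3, ABCC5 and ABCC6). The widest range between probes of a gene was 0.66, in ABCA1, and the narrowest 0.009, in ABCE1. The 5′ probe of ABCA1 passed the filter only through the HOTAIR group, as did a probe of ABCB1 and a probe of ABCC10. For the 5 genes of both signs the ranges, from 0.257 to 0.66, were of the size of the differences between the groups. The ranges of ABCE1 and of ABCD3 (0.028) were far smaller than the differences of those genes.

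The arrays that stood apart did so in the ABC genes too. EV 2 lay farthest from its group mean for 25 of the 43 tested ABC probes (58.1%) and HOTAIR 3 for 26 (60.5%). Their deviations from the other arrays of their groups had the same sign for 31 of 43 probes and correlated at 0.439, a description over probes that share the same arrays. ABCC10, ABCD4 and a probe of ABCC5 were low on EV 2, and ABCE1 and ABCC2 high. Without these arrays 6 ABC probes (14%) had an unadjusted p under 0.05 by limma, namely ABCA12, ABCB6, ABCD3, the 3′ probe of ABCC6 and both probes of ABCE1, where 9.11% of all probes did, and 0 passed the adjusted p.

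**Figure D4:**
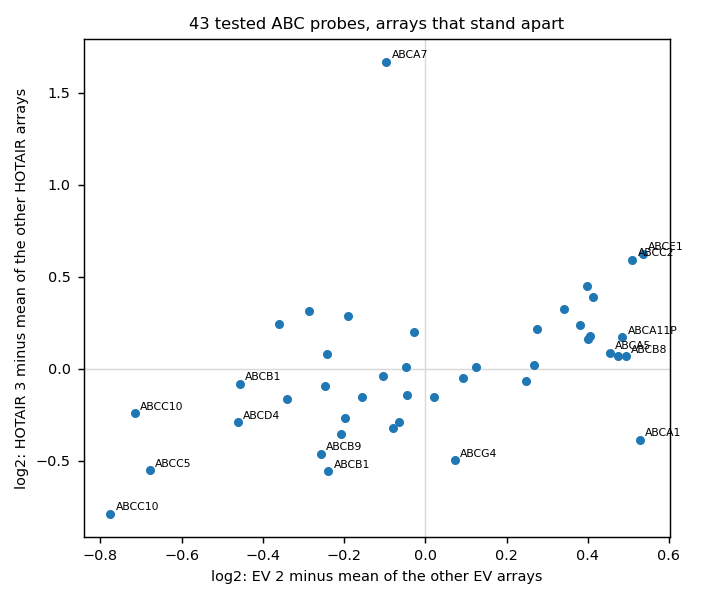
Each point is 1 of the 43 tested ABC probes, with the deviation of EV 2 from the other EV arrays on the horizontal axis and that of HOTAIR 3 from the other HOTAIR arrays on the vertical axis, both in log2 units. Most points lie in the lower left and upper right (31 of 43 share a sign), ABCC10 is low on both arrays, and ABCA7 stands alone at 1.67 on HOTAIR 3.

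Genes that work with or control the family were counted from lists, with 1 probe per gene. TAP1 and TAP2, the peptide transporters of antigen presentation, which belong to the family under other names, differed by 0.02 (from -0.21 to 0.25) and 0.03 (from -0.23 to 0.30) with overlapping groups, and CFTR, the chloride channel of subfamily ABCC, was on no array. Of 21 regulators of ABC genes, such as the nuclear receptors for oxysterols, bile acids and xenobiotics, 15 were tested and 0 had an adjusted or unadjusted p under 0.05 by limma. NFE2L2, the oxidant response factor that is known to raise several ABCC genes, was not tested, since its probe was well above background on 1 HOTAIR array and 0 EV arrays.

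Of 12 partner genes, 10 were tested and 0 passed the adjusted p. PDZK1, a scaffold that anchors apical transporters of the proximal tubule such as ABCC2, was the 1 of these 10 genes (10%, against 5.85% of all tested probes) with an unadjusted p under 0.05. It was at -1.68, -1.32, -1.55 and -1.69 on the EV arrays and at -2.06, -2.15 and -2.04 on the HOTAIR arrays. All HOTAIR arrays lay below all EV arrays, with a difference of -0.52 (from -0.81 to -0.23, unadjusted p = 0.00331, adjusted p = 0.324 by limma). MVP and PEX3 also had groups without overlap, with differences of 0.18 and -0.23, which makes 3 of 10 partner genes (30%). Over all tested partner probes it was 3 of 15 (20%, against 7.7% of all tested probes). The other PEX3 probe, also well above background on all arrays, had a difference of 0.02 with overlapping groups.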

How the data were processed

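RNA of 4 EV and 3 HOTAIR samples was measured on 7 single-colour arrays. Per the submitters' processing notes the authors used Agilent Feature Extraction 10.7.3.1, and they deposited its output for each array, with the processed intensity of every spot (background subtracted, not scaled between arrays). A deposited table of intensities differed from the scanner values by at most 0.498%. Columns of no sample numbered 0. The depth of an array measurement is limited by the number of arrays.

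Values were computed in R 4.3.3 with limma 3.58.1 as log2 of the processed intensity minus each array's 75th percentile over non-control spots. Outlier spots were left out and spots of a probe averaged. A probe counted as well above background on an array when at least 50% of its spots did. Of all probes, 20419 were so detected throughout the EV group, the HOTAIR group or both, and entered limma's linear model with empirical Bayes moderation. The p-values were adjusted over all of these probes (Benjamini-Hochberg, threshold 0.05). The study's methods name a log scale and the rank product, which was used here for ranks only, over 12 pairs of arrays. The comparison was tested on simulated data.

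The probe annotation is on hg19. RefSeq (GRCh38.p14) was used for names, biotypes and chromosomes, matched by accession for 69 of the 71 probes and by symbol for 2.

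The members and lists were chosen with earlier results of these data known. Named genes are the efflux pumps, members past an adjusted or unadjusted p of 0.05, those with the largest difference or EV spread in a subfamily, those detected on some arrays and those whose groups do not overlap. Other ABC genes were named after their values were seen. The brightest tested probe represents a gene. Alternatives were normexp background correction (offset 50), other scalings and filters, the deposited table, each array left out, the replicate number as a block, and trend and robust moderation. Leaving out EV 2 with HOTAIR 3 and limma's array weights were added after the data were seen. Some members of the family are counted but not reported singly here.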

Additional observations from a re-analysis of the deposited data

Results flagged for a closer look

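On the EV arrays, 3 of the 20 ABC probes examined had 1 array far from the other 3 by Dixon's ratio, the gap to the nearest array over the whole range. Each ratio was above the 95% critical value for 4 arrays. Chance puts about 1 in 20 groups past that value, but some of these probes were chosen for a wide spread over the EV arrays, so that rate does not hold for them. The array was EV 2 each time. ABCA11P had a ratio of 0.923, with EV 2 at -2.48 and the other EV arrays from -2.98 to -2.95. ABCC3 had a ratio of 0.887, with EV 2 at 2.41 and the others from 1.98 to 2.03. ABCD4 had a ratio of 0.881, with EV 2 at -0.13 and the others from 0.30 to 0.36. The cause was not tested.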

How the results depend on the processing

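The count of ABC probes past the adjusted p was 0 under every alternative except array weights, where it was 1 (ABCA12, -0.49, adjusted p = 0.0189 by limma) while the calls among all probes went from 34 to 324. Those calls were 12 with normexp, 14 with no filter, 22 with detection on all arrays, 20 with trend and robust moderation, and 9 to 30 with 1 array left out. Whether the replicate numbers pair the samples is not stated. Deviations of same-numbered arrays from their group means correlated at 0.386, -0.368 and -0.406, and those of EV 2 and HOTAIR 3 at 0.619. Deviations within a group sum to 0, so arrays that stand apart move all of these values, which cannot decide the question. With the replicate block 0 of all probes were called, and the ABCC2 difference was -0.062. There 1 ABC probe had an unadjusted p under 0.05 by limma (2.33%, against 5.25% of all probes). The 2 ABC probes with an unadjusted p under 0.05 (4.65%, against 5.85% of all probes) became 4 with normexp (9.3%, against 5.59%). The count was 1 with the median over detected probes (2.33%, against 5.75%), the deposited table (2.33%, against 4.14%) and trend and robust moderation (2.33%, against 5.48%). It was 6 without EV 2 and HOTAIR 3 (14%, against 9.11%) and 9 with array weights (20.9%, against 17.9%). With 1 array left out it was 1 to 3 (2.33% to 6.98%, against 3.8% to 7.83%). ABCA12 was among these probes each time. The 6 probes without overlap became 3 with quantile normalization (6.98%, against 7.96% of all), 2 with the deposited table (4.65%, against 5.01%) and 17 without EV 2 and HOTAIR 3 (39.5%, against 28.4%), and 7 to 13 with 1 array left out, 13 being without HOTAIR 3, where fewer arrays also gave 9.96% to 21.2% of all probes.

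Small differences changed sign. That of ABCC2 was -0.018 with normexp, -0.138 with quantile normalization, -0.008 with the median, -0.064 without EV 2 and HOTAIR 3, and -0.085 with array weights. That of ABCC1 was -0.027 with normexp. That of ABCF3 was 0.005 with the deposited table, 0.006 without EV 2 and HOTAIR 3 and 0.031 with array weights. With 1 array left out at a time, differences ran from -0.191 to 0.133 for ABCC2, from -0.078 to 0.129 for ABCC1, from -0.065 to 0.252 for ABCA9, from -0.129 to 0.031 for ABCC3, from -0.093 to 0.364 for ABCC10 and from -0.094 to 0.06 for ABCF3. Without a change of sign, they ran from 0.164 to 0.371 for ABCB1, from -0.507 to -0.161 for ABCE1, from -0.409 to -0.134 for ABCG4, from -0.33 to -0.152 for ABCA11P, from -0.269 to -0.102 for ABCB8 and from -0.201 to -0.028 for ABCF2. The cause was not tested. The number of arrays and dim signal limit what could be detected, and probes near background are the least certain.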
